A study of Mus musculus with 18 samples.

Results

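The expression of genes in ADAM10-deficient (KO) CD4+ conventional dendritic cells type 2 (cDC2) was set against that in KO CD4-CD8- cDC2, both sorted from the spleens of C57BL/6 mice. The members are all libraries of these groups, 3 of each and 6 of the 18 in the series, and all were chosen by their labels. The same difference in wild-type (WT) spleens, with 3 WT CD4+ and 3 WT CD4-CD8- libraries, served as the measure of how far apart the populations normally are, and the question was whether they came closer together without ADAM10. All groups were spleen cells enriched for CD11c and sorted alive as CD11c+MHCII+. The KO and WT CD8+ libraries of the cDC1 sort entered the shared estimate of spread and served as a yardstick for cDC1 genes. The labels give genotype only as KO or WT, with no age and no account of the promoter, Cre line or allele by which ADAM10 was removed. Nor do they tie a numbered library to a mouse of its own. The p-values therefore rest on scatter among libraries, and some of that scatter may be technical.

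Conventional dendritic cells take up antigen and present it to T cells. The cDC2 branch depends on the transcription factor IRF4 and mainly primes CD4+ T cells, whereas the cDC1 branch depends on IRF8 and BATF3 and cross-presents antigen to CD8+ T cells. In mouse spleen, cDC2 near the marginal zone receive Notch2 signals, which maintain a CD4+ population marked by the adhesion molecule ESAM, and cDC2 with little ESAM resemble monocytes in part of their transcripts. ADAM10 is a metalloprotease of the cell surface whose cut in ligand-bound Notch receptors precedes the release of their signalling domain.

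Estimated counts per library summed to 13569089 to 19176198 in the KO cDC2 libraries and to 12358884 to 19557469 over the series. Adam10 (chr9:70678997-70780229, GRCm38) had 41.8, 41.6 and 45.9 CPM (counts scaled to library size) in the KO CD4+ libraries and 47.4, 41.7 and 44.6 CPM in the KO CD4-CD8- libraries. WT values were 82.9, 80.6 and 129.6 CPM in CD4+ and 90.9, 88.3 and 138 CPM in CD4-CD8- libraries. Every KO library was below every WT library, and the level in KO was above 0. Whether the remaining reads lie outside a deleted part of the gene was not tested. Cd4, the gene of the sorted coreceptor, averaged 433 ± 31.0 CPM in KO CD4+ and 4.00 ± 0.851 CPM in KO CD4-CD8- cells, and 443 ± 37.2 CPM in WT CD4+ and 6.40 ± 0.483 CPM in WT CD4-CD8- cells (SD, n = 3 each). Cd8a averaged 1.86 ± 0.708 CPM in KO CD4+ and 4.95 ± 0.872 CPM in KO CD4-CD8- cells, against 588.5 ± 73.8 CPM in KO CD8+ cells (SD, n = 3 each). Mitochondrially encoded genes took 1.63% to 2.58% of counts and ribosomal protein genes 11.7% to 12.9% in the KO cDC2 libraries, with overlapping ranges between CD4+ and CD4-CD8- cells. The 10 most abundant genes took 14.5% to 14.8% of counts in KO CD4+ and 12.9% to 13.4% in KO CD4-CD8- libraries, against 10.5% to 10.6% in WT CD4+ and 9.64% to 10.2% in WT CD4-CD8- libraries.

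The KO populations differed in fewer genes than the WT populations. Among 13355 genes tested with edgeR's quasi-likelihood test, at a Benjamini-Hochberg adjusted p under 0.05, 1062 genes (7.95% of those tested) differed between KO CD4+ and KO CD4-CD8- cells, of which 424 (3.17%) were higher and 638 (4.78%) lower in the CD4+ cells. In WT, 2243 genes (16.8%) differed, 954 (7.14%) higher and 1289 (9.65%) lower in CD4+ cells. Among differences of at least 2-fold, the genotypes parted in the genes that were lower in CD4+ cells. In KO, 397 genes (2.97%) passed the test with a difference of at least 2-fold, 148 (1.11%) higher and 249 (1.86%) lower in CD4+ cells. In WT, 848 genes (6.35%) did, 128 (0.958%) higher and 720 (5.39%) lower in CD4+ cells. The 3 libraries of each population did not overlap for 3307 genes (24.8%) in KO and 4947 genes (37.0%) in WT, and 2825 genes (21.2%) had an unadjusted p under 0.05 in KO. Leaving out 1 library lowered the counts in both genotypes, to 664 to 952 in KO and 1527 to 2034 in WT. Without KO CD4+ replicate 2 the number of KO genes called was 664 (260 higher, 404 lower), without KO CD4-CD8- replicate 3 it was 665 (244 higher, 421 lower), and without KO CD4-CD8- replicate 2 it was 716 with 263 higher. In WT, the count of genes higher in CD4+ cells was 531 without WT CD4-CD8- replicate 3, 578 without WT CD4-CD8- replicate 1, 619 without WT CD4+ replicate 2 and 626 without WT CD4+ replicate 1. On log2(TPM + 1), limma called 175 genes higher and 351 lower in KO CD4+ cells, and 239 higher and 1386 lower in WT CD4+ cells, with a median of all genes at -0.05 in KO and -0.12 in WT.

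The difference itself differed between the genotypes for 503 genes (3.77%), tested as the KO difference minus the WT difference. It was positive for 333 (2.49%) and negative for 170 (1.27%). A size of at least 2-fold was reached by 285 (2.13%), of which 251 (1.88%) were positive and 34 (0.255%) negative. The populations were closer in KO for 385 of the 503 genes (76.5%) and farther apart for 118. Of the 385, 299 were lower in WT CD4+ than in WT CD4-CD8- cells, and for 212 of these the larger move was a higher mean in KO CD4+ than in WT CD4+ cells, while for 87 it was a lower mean in KO CD4-CD8- than in WT CD4-CD8- cells. The other 86 were higher in WT CD4+ cells, and for 75 of them the larger move was a lower mean in KO CD4+ than in WT CD4+ cells. The count of 503 fell to 316 without KO CD4+ replicate 3, 333 without KO CD4-CD8- replicate 2, 305 without WT CD4+ replicate 2 and 309 without WT CD4-CD8- replicate 1. The positive ones then numbered 211, 231, 212 and 223, and without WT CD4+ replicate 3 the negative ones numbered 96. On log2(TPM + 1), limma called 346 positive and 41 negative.

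In total 560 genes were called in both genotypes in the same direction, which was 52.7% of the genes called in KO and 25.0% of those called in WT, and 29 were called in opposite directions. Of the 249 genes at least 2-fold lower in KO CD4+ cells, 201 (80.7%) were also called lower in WT, with a median log2 difference of -2.34 in KO and -2.43 in WT. Of the 720 genes at least 2-fold lower in WT CD4+ cells, 232 were called lower in KO and 7 higher, and 481 were not called, with a median of -0.82 in KO and -2.36 in WT. For the 148 genes at least 2-fold higher in KO CD4+ cells, the median was 1.54 in KO and 0.75 in WT, and 62 were called higher in WT. For the 128 at least 2-fold higher in WT CD4+ cells, it was 0.95 in KO and 1.36 in WT, and 54 were called higher in KO. Genes picked by their estimate in 1 genotype tend to have a smaller estimate in the other, so these medians favour the genotype that picked them. Over all 13355 genes the median log2 difference was -0.01 in KO and 0.02 in WT.

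Distances over all tested genes had the same direction. The root mean square difference in log2 CPM between CD4+ and CD4-CD8- libraries of the same number was 0.685, 0.801 and 0.746 in KO and 0.942, 0.859 and 0.896 in WT. All 3 KO distances were below all 3 WT distances (0.744 ± 0.0579 in KO and 0.899 ± 0.0415 in WT, SD, n = 3 distances each; two-sided exact permutation test, p = 0.1, the smallest p that 3 against 3 allows). The numbers were not shown to pair libraries, so this is 1 of several ways to match them. Over all 9 matches in each genotype, distances ranged from 0.685 to 0.835 in KO and from 0.849 to 0.986 in WT. Libraries of 1 population differed by 0.578 to 0.657 in KO and by 0.513 to 0.570 in WT, so replicates lay farther apart in KO than in WT. After removal of this replicate scatter, by multiplying differences taken from separate libraries, the distance was 0.440 in KO and 0.728 in WT. Every KO pair between populations was above every KO pair within 1 population. The same population in KO against WT differed by 0.939 to 0.980 for CD4+ and 0.846 to 0.911 for CD4-CD8- cells, each more than the 2 populations differed within KO.

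**Figure D1:**
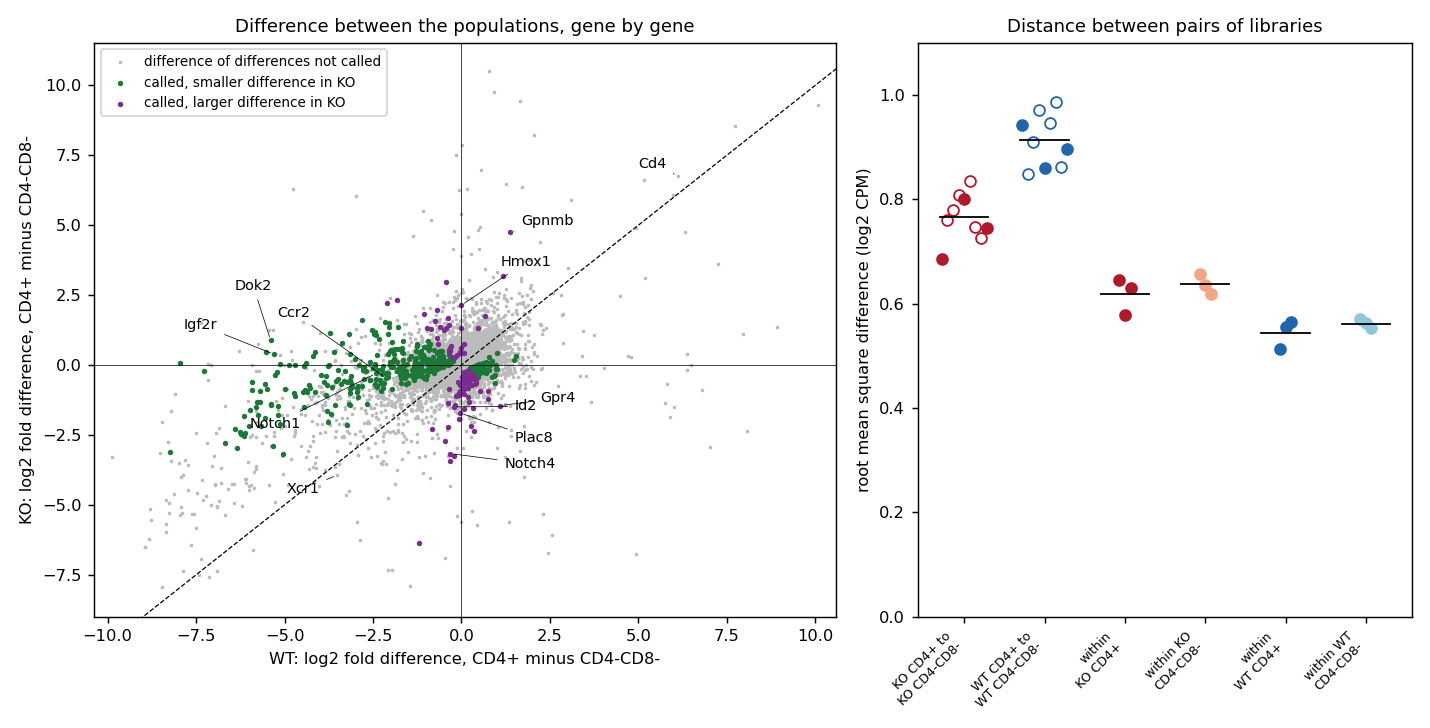
Left, the log2 fold difference between CD4+ and CD4-CD8- cells in KO (vertical) against that in WT (horizontal) for 13355 genes; the dashed line marks equal differences, green points are the 385 genes with a smaller and purple points the 118 with a larger difference in KO among the 503 called. Right, the root mean square difference in log2 CPM for each pair of libraries (filled, same number or same population; open, other numbers; bars, means), where KO pairs lie between 0.685 and 0.835 and WT pairs between 0.849 and 0.986.

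A list of 14 genes of ESAM-low cDC2, the monocyte-like cDC2, moved in both directions. In KO CD4+ cells 3 of the 14 rose, which were Lyz1, Lyz2 and Csf3r, and 2 fell, among them Ccr2 (35.7% called, against 7.95% of all genes). In WT CD4+ cells 1 rose and 7 fell, where 16.8% of all genes were called. The median log2 difference was 0.31 in KO and -0.45 in WT. The list summed to 20377 to 25104 CPM in KO CD4+ and 13933 to 17761 CPM in KO CD4-CD8- libraries, against 3985 to 4531 CPM in WT CD4+ and 3892 to 4726 CPM in WT CD4-CD8- libraries. The sums were separate in KO and overlapped in WT, and Lyz2 was the most abundant of the 14 list genes in all 4 groups. The KO minus WT difference was called for 3 of the 14, Ccr2, Clec10a and Cx3cr1 (21.4%, against 3.77% of all genes), and was positive for each. Falls called in KO numbered 0 without KO CD4+ replicate 2, and 1 without KO CD4+ replicate 1 or KO CD4-CD8- replicate 2.

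Ccr2, the receptor for the monocyte chemokine CCL2 (chr9:124101950-124113557), had 918, 779 and 1097 CPM in KO CD4+ and 1186, 1374 and 1287 CPM in KO CD4-CD8- libraries. WT values were 70.5, 81.3 and 70.7 CPM in CD4+ and 332, 329 and 322 CPM in CD4-CD8- libraries. KO libraries of both populations were above all WT libraries. The log2 difference was -0.46 ± 0.10 in KO (SE, adjusted p = 0.0102) and -2.14 ± 0.11 in WT (adjusted p = 3.35e-09), and the KO minus WT difference was 1.68 ± 0.15 (adjusted p = 1.43e-05). The small KO difference in Ccr2 was no longer called without KO CD4+ replicate 2 (adjusted p = 0.0504) or without KO CD4-CD8- replicate 2 (adjusted p = 0.0541).

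The lectin gene Clec10a, whose product binds galactose-type sugars, had 708, 522 and 629.7 CPM in KO CD4+ and 518, 473 and 502 CPM in KO CD4-CD8- libraries. WT values were 21.6, 22.1 and 12.9 CPM in CD4+ and 58.5, 54.6 and 38.8 CPM in CD4-CD8- libraries. The KO groups lay far above the WT groups, and KO CD4+ libraries were slightly above KO CD4-CD8- libraries without a called difference (log2 difference 0.32 ± 0.21 in KO, adjusted p = 0.423, and -1.42 ± 0.22 in WT, adjusted p = 0.000285). The KO minus WT difference was 1.74 ± 0.30 (adjusted p = 0.0034). Its neighbouring paralog Mgl2 averaged 324 ± 48.3 CPM in KO CD4+ and 269 ± 34.1 CPM in KO CD4-CD8- cells, against 10.0 ± 3.94 CPM in WT CD4+ and 17.6 ± 4.30 CPM in WT CD4-CD8- cells (SD, n = 3 each), but here the KO minus WT difference was not called (1.08 ± 0.35, adjusted p = 0.11). Reads shared by this pair were divided by the authors' quantification, so each value carries that uncertainty.

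For Cx3cr1, the fractalkine receptor, levels were 369.5, 414 and 444 CPM in KO CD4+ and 327, 391 and 432 CPM in KO CD4-CD8- libraries. WT values were 84.8, 74.0 and 70.4 CPM in CD4+ and 162, 146 and 149 CPM in CD4-CD8- libraries. The KO groups overlapped and the WT groups did not. Its KO minus WT difference was 1.09 ± 0.27 (adjusted p = 0.0298), which was lost in 8 of 12 fits that each left out 1 library (highest adjusted p = 0.0807, without WT CD4+ replicate 2). Fn1, encoding the matrix protein fibronectin, had 115, 254 and 233 CPM in KO CD4+ and 122, 251 and 329 CPM in KO CD4-CD8- libraries. WT values were 1.57, 0.913 and 0.467 CPM in CD4+ and 8.28, 8.56 and 12.6 CPM in CD4-CD8- libraries. In KO the spread within each group exceeded the gap between them (-0.22 ± 0.32, adjusted p = 0.761), while WT differed by -3.29 ± 0.55 (adjusted p = 0.000508). The KO minus WT difference of 3.07 ± 0.65 (adjusted p = 0.0129) was not called without WT CD4+ replicate 2 (adjusted p = 0.0545). Fcrls, an Fc receptor-like gene, averaged 237 ± 75.2 CPM in KO CD4+ and 244 ± 116 CPM in KO CD4-CD8- cells, against 0.142 ± 0.153 CPM in WT CD4+ and 0.266 ± 0.308 CPM in WT CD4-CD8- cells (SD, n = 3 each), with no called difference between the populations in KO (adjusted p = 0.962) or WT (adjusted p = 0.816).

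The largest positive changes of the difference among called genes were in genes that were near 0 in WT CD4+ cells alone. Dok2, an adaptor that dampens tyrosine kinase signals, had 33.6, 42.5 and 38.8 CPM in KO CD4+ and 15.8, 19.3 and 27.1 CPM in KO CD4-CD8- libraries. WT values were 0.302, 0.406 and 0.401 CPM in CD4+ and 23.3, 15.4 and 9.06 CPM in CD4-CD8- libraries. Only WT CD4+ libraries stood apart by an order of magnitude, and the KO minus WT difference was 6.29 ± 0.55 (adjusted p = 1.43e-05). Igf2r, the receptor for mannose-6-phosphate and IGF2, averaged 6.69 ± 0.474 CPM in KO CD4+ and 5.13 ± 0.663 CPM in KO CD4-CD8- cells, against 0.259 ± 0.0672 CPM in WT CD4+ and 10.2 ± 1.77 CPM in WT CD4-CD8- cells (SD, n = 3 each; KO minus WT difference 5.67 ± 0.33, adjusted p = 1.08e-07). Klrb1a, a lectin-like receptor gene of NK cells, averaged 7.44 ± 1.53 CPM in KO CD4+ and 7.34 ± 2.33 CPM in KO CD4-CD8- cells, against 0.180 ± 0.0769 CPM in WT CD4+ and 6.45 ± 2.42 CPM in WT CD4-CD8- cells (SD, n = 3 each; difference 5.15 ± 0.52, adjusted p = 8.01e-05). Of the other 3 genes with the largest positive change, Trbc1, a constant segment of the T cell receptor, and Skap1, a T cell adaptor, belong to another lineage, and Alox5 encodes the enzyme that starts leukotriene synthesis. Alox5 averaged 4.22 ± 1.69 CPM in KO CD4+ and 36.2 ± 4.54 CPM in KO CD4-CD8- cells, against 0.0424 ± 0.0369 CPM in WT CD4+ and 14.4 ± 5.88 CPM in WT CD4-CD8- cells (SD, n = 3 each). Its change of 5.14 ± 0.99 (adjusted p = 0.00653) turned to -0.0773 on log2(TPM + 1), a scale on which low values weigh less.

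**Figure D2:**
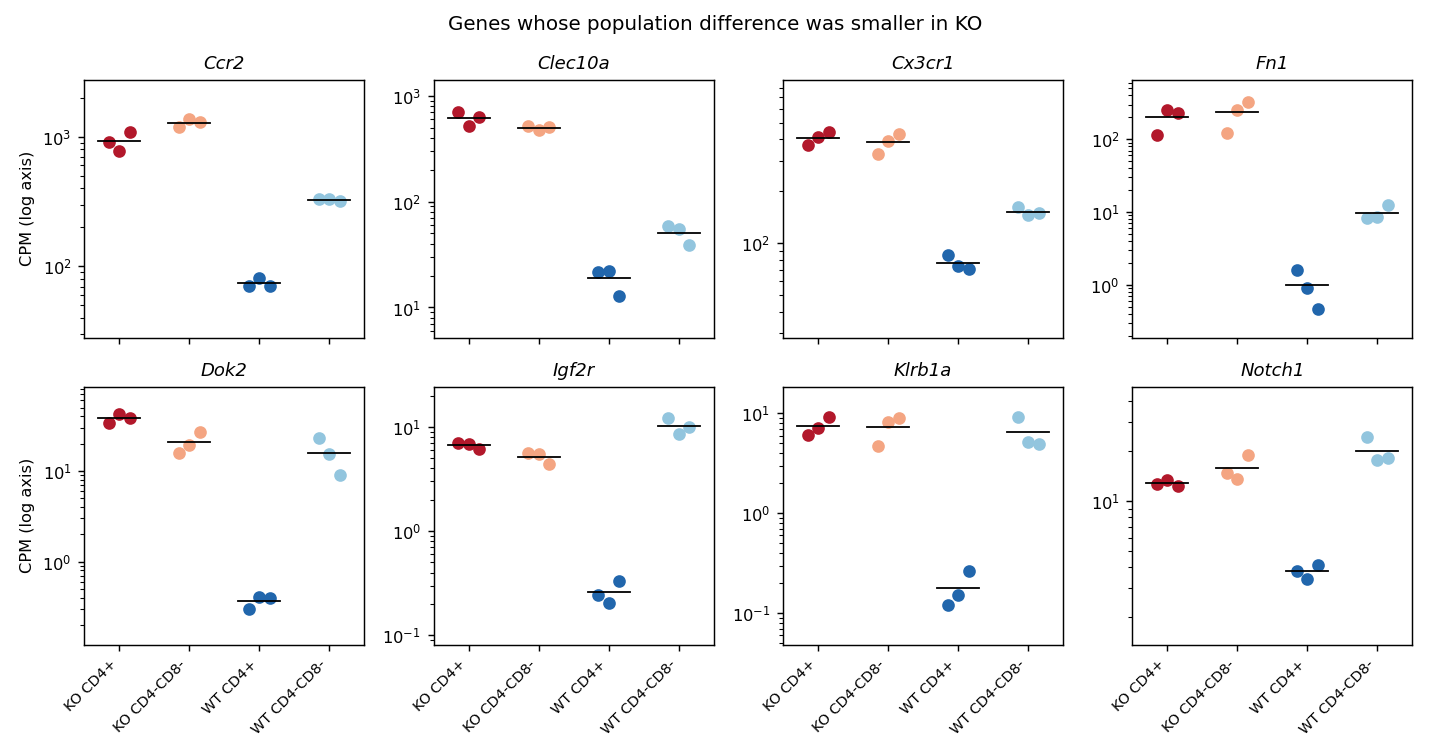
CPM on a log axis for 8 genes in each library of the KO CD4+, KO CD4-CD8-, WT CD4+ and WT CD4-CD8- groups (points, 3 libraries each; bars, means). WT CD4+ cells are the lowest group in every panel, and the KO means lie closer together than the WT means, as for Klrb1a with means of 7.44 CPM in KO CD4+ and 7.34 CPM in KO CD4-CD8- cells.

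Summed markers of T and NK cells were lower in KO than in WT CD4-CD8- libraries and overlapped between genotypes in CD4+ libraries. For Dok2, Igf2r and Klrb1a, which were picked for a large KO minus WT difference, the larger change between genotypes was in CD4+ cells. Trbc1 and Skap1, picked by the same rule, are T cell genes. The 15 genes of a T cell list summed to 23.6 to 42.4 CPM in KO CD4+ and 24.3 to 84.1 CPM in KO CD4-CD8- libraries, against 29.1 to 31.0 CPM in WT CD4+ and 254.9 to 517.7 CPM in WT CD4-CD8- libraries. The 13 genes of an NK cell list summed to 125.5 to 170.2 CPM in KO CD4+ and 345.1 to 474.1 CPM in KO CD4-CD8- libraries, against 117.3 to 137.6 CPM in WT CD4+ and 815.2 to 1543.2 CPM in WT CD4-CD8- libraries. WT CD4-CD8- replicate 1 was highest for both lists. Cd3g, a chain of the T cell receptor complex picked with its values known, had 0.664, 1.65 and 2.65 CPM in KO CD4+ and 4.92, 1.53 and 5.75 CPM in KO CD4-CD8- libraries. WT values were 0.544, 0.406 and 0.267 CPM in CD4+ and 31.8, 11.7 and 21.2 CPM in CD4-CD8- libraries. In bulk libraries, fewer cells of a type and less RNA per cell cannot be told apart. Of the 503 genes whose difference changed between genotypes, 17 were markers on the T, NK, B or plasma cell lists. Without these 17, 368 of 486 had a smaller difference in KO, and without all genes of those lists the distance between the populations was 0.734 in KO and 0.865 in WT. The part of T and NK cell RNA in the other genes was not tested.

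**Figure D3:**
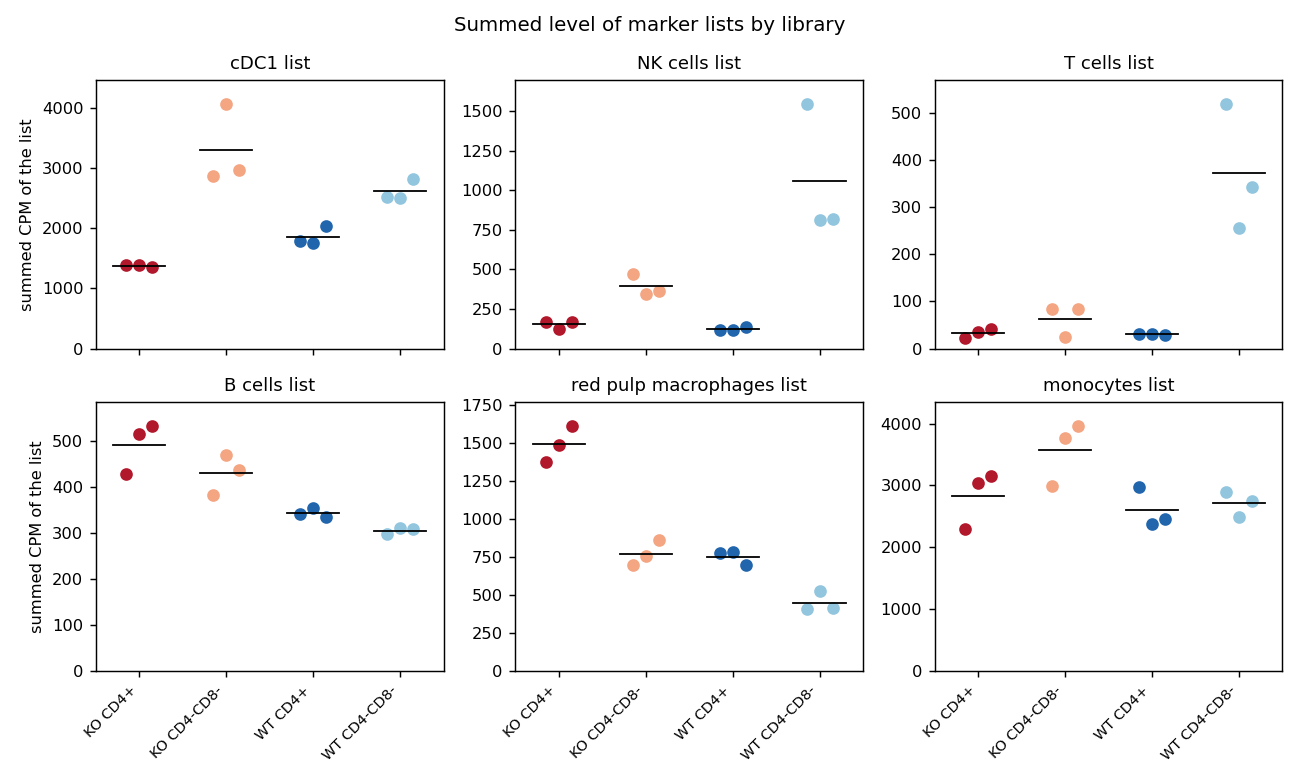
Summed CPM of the genes in 6 marker lists for each library of the KO CD4+, KO CD4-CD8-, WT CD4+ and WT CD4-CD8- groups (points, 3 libraries each; bars, means; axes start at 0). T and NK cell sums are highest in WT CD4-CD8- cells (up to 517.7 and 1543.2 CPM), the cDC1 sum is highest in KO CD4-CD8- cells, and the red pulp macrophage sum is highest in KO CD4+ cells.

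Summed over 10 measured targets, Notch target expression was lower in both KO populations than in either WT population. Of the 10, 0 were called between KO CD4+ and KO CD4-CD8- cells by edgeR (7.95% of all genes were), 3 had an unadjusted p under 0.05 and 0 were called by DESeq2. In WT CD4+ cells 1 rose and 4 fell, where 16.8% of all genes were called. The median log2 difference was -0.79 in KO and -0.46 in WT, against -0.01 and 0.02 over all genes. The count of 0 rested on 1 library, since 3 targets were called lower without KO CD4+ replicate 2, among them Dtx1 (log2 difference -2.61, adjusted p = 0.0104) and Hes1 (-1.95, adjusted p = 0.0354), and 1 was with the replicate number as a block. The targets' CPM summed to 497.1 to 533.1 in KO CD4+ and 488.9 to 504.2 in KO CD4-CD8- libraries, against 1774 to 2133 in WT CD4+ and 1121 to 1368 in WT CD4-CD8- libraries. Dtx1, a ubiquitin ligase gene switched on by Notch, had 0.664, 10.9 and 2.08 CPM in KO CD4+ and 5.93, 3.76 and 14.5 CPM in KO CD4-CD8- libraries. WT values were 328, 356 and 344 CPM in CD4+ and 249, 259 and 265 CPM in CD4-CD8- libraries. KO CD4+ replicate 2 was the highest of its group, and the KO groups overlapped (-0.79 ± 0.60, adjusted p = 0.505). Hes1, a Notch-induced repressor, averaged 1.26 ± 1.19 CPM in KO CD4+ and 2.28 ± 0.957 CPM in KO CD4-CD8- cells, against 40.2 ± 7.83 CPM in WT CD4+ and 27.1 ± 3.60 CPM in WT CD4-CD8- cells (SD, n = 3 each). Esam had 1.38, 4.10 and 1.79 CPM in KO CD4+ and 1.54, 1.76 and 1.23 CPM in KO CD4-CD8- libraries. WT values were 74.7, 73.6 and 79.6 CPM in CD4+ and 24.3, 32.0 and 33.4 CPM in CD4-CD8- libraries. Esam differed between the populations in WT (1.34 ± 0.22, adjusted p = 0.000363) but not detectably in KO (0.69 ± 0.34, adjusted p = 0.253), and the KO minus WT difference was not called (-0.65 ± 0.41, adjusted p = 0.497).

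Receptors and ligands of the pathway gave a mixed picture. Notch2, the main Notch receptor of cDC2, averaged 317 ± 3.72 CPM in KO CD4+ and 351 ± 30.2 CPM in KO CD4-CD8- cells, against 222 ± 13.6 CPM in WT CD4+ and 244 ± 25.9 CPM in WT CD4-CD8- cells (SD, n = 3 each), with no called difference between the populations in KO (adjusted p = 0.495). Notch1 had 12.6, 13.4 and 12.3 CPM in KO CD4+ and 14.8, 13.6 and 18.9 CPM in KO CD4-CD8- libraries. WT values were 3.81, 3.40 and 4.14 CPM in CD4+ and 24.5, 17.6 and 18.1 CPM in CD4-CD8- libraries. Only WT CD4+ libraries were low, and the KO minus WT difference of 2.11 ± 0.22 was called (adjusted p = 6.64e-05). Notch4, a receptor best known from endothelium, went the other way, with 0.443, 1.77 and 0.788 CPM in KO CD4+ and 6.58, 11.6 and 9.35 CPM in KO CD4-CD8- libraries. WT values were 5.68, 5.99 and 4.74 CPM in CD4+ and 5.74, 7.75 and 7.19 CPM in CD4-CD8- libraries. It fell by 3.17 ± 0.30 on the log2 scale in KO CD4+ cells (adjusted p = 5.5e-06), against -0.32 ± 0.24 in WT (adjusted p = 0.424; KO minus WT difference -2.84 ± 0.39, adjusted p = 0.000549). The ligand gene Jag1 rose in CD4+ cells of both genotypes (1.03 ± 0.21 in KO, adjusted p = 0.00581, and 1.02 ± 0.20 in WT, adjusted p = 0.00174). Jag2, another ligand, fell in both, at means of 0.175 CPM in KO CD4+ and 1.82 CPM in KO CD4-CD8- cells. Of 25 measured receptors, ligands and components, 1 rose and 2 fell in KO (12.0%, against 7.95% of all genes). In WT 1 rose and 5 fell, where 16.8% of all genes were called.

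Genes of cDC1 were mostly lower in CD4+ cells of both genotypes. Of 18 measured cDC1 genes, 13 fell and 1 rose in KO CD4+ cells (77.8%, against 7.95% of all genes). In WT CD4+ cells 11 fell and 1 rose, where 16.8% of all genes were called. The list had a median log2 difference of -1.40 in KO and -1.44 in WT, against -0.01 and 0.02 over all genes. Xcr1, the receptor for the chemokine XCL1, had 3.71, 7.97 and 6.52 CPM in KO CD4+ and 69.3, 134 and 75.3 CPM in KO CD4-CD8- libraries. WT values were 3.99, 3.55 and 2.74 CPM in CD4+ and 39.1, 38.1 and 40.6 CPM in CD4-CD8- libraries. The populations were separate in both genotypes, and the fall was 3.94 ± 0.27 log2 units in KO (adjusted p = 2.74e-07) and 3.51 ± 0.28 in WT. Irf8 had 189.8, 263 and 216 CPM in KO CD4+ and 517, 742 and 559 CPM in KO CD4-CD8- libraries. WT values were 155, 129.5 and 140.4 CPM in CD4+ and 472, 353 and 418 CPM in CD4-CD8- libraries. KO CD4-CD8- replicate 2 was the highest cDC2 library for Xcr1 and Irf8 alike, and the log2 difference of Irf8 was -1.44 ± 0.15 in KO and -1.55 ± 0.15 in WT (adjusted p = 1.25e-05 and 2.07e-06). Clec9a, a receptor for dead cells, averaged 42.5 ± 5.90 CPM in KO CD4+ and 97.6 ± 18.5 CPM in KO CD4-CD8- cells, against 24.7 ± 1.48 CPM in WT CD4+ and 62.1 ± 6.37 CPM in WT CD4-CD8- cells (SD, n = 3 each). Tlr3, the sensor of double-stranded RNA, averaged 5.51 ± 0.506 CPM in KO CD4+ and 47.9 ± 15.8 CPM in KO CD4-CD8- cells (SD, n = 3 each; -3.12 ± 0.21, adjusted p = 2.53e-07).

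These cDC1 genes were far below their level in the cDC1 sort. KO CD8+ cells averaged 1011 ± 54.5 CPM of Xcr1 and 3389 ± 156 CPM of Irf8 (SD, n = 3 each). The whole list summed to 1362 to 1394 CPM in KO CD4+ and 2872 to 4061 CPM in KO CD4-CD8- libraries, against 20302 to 20746 CPM in KO CD8+ libraries, and to 1764 to 2038 CPM in WT CD4+ and 2496 to 2823 CPM in WT CD4-CD8- libraries. Cd8a averaged 4.95 CPM in KO CD4-CD8- cells and 588.5 CPM in KO CD8+ cells. The part of cDC1 in the CD4-CD8- sort was not tested. Batf3 was not called (46.8 ± 6.84 CPM in KO CD4+ and 40.6 ± 6.52 CPM in KO CD4-CD8- cells, SD, n = 3 each, adjusted p = 0.546). Cd8b1, encoding the beta chain of CD8, was the 1 list gene that rose, to 9.72 ± 2.45 CPM in KO CD4+ against 1.59 ± 0.657 CPM in KO CD4-CD8- cells (SD, n = 3 each; 2.63 ± 0.31, adjusted p = 4.34e-05), as it did in WT (2.03 ± 0.28, adjusted p = 8.9e-05).

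For 6 of the 18 cDC1 genes (33.3%, against 3.77% of all genes) the difference itself changed between genotypes, upward for 3 and downward for 3, with Ifi205 and Wdfy4 as examples. Ifi205, an interferon-inducible gene typical of cDC1, averaged 12.4 ± 3.81 CPM in KO CD4+ and 112 ± 23.1 CPM in KO CD4-CD8- cells, against 1.93 ± 0.531 CPM in WT CD4+ and 65.2 ± 4.86 CPM in WT CD4-CD8- cells (SD, n = 3 each). It was called in both genotypes, and the KO minus WT difference was 1.88 ± 0.31 (adjusted p = 0.00204). Wdfy4, needed for cross-presentation and picked with its values known, had 340.5, 342 and 333 CPM in KO CD4+ and 632, 856 and 752 CPM in KO CD4-CD8- libraries. WT values were 1080.2, 1041 and 1385 CPM in CD4+ and 860.0, 1027 and 1217 CPM in CD4-CD8- libraries. It was called in KO only (-1.14 ± 0.15, adjusted p = 0.000164; WT 0.18 ± 0.15, adjusted p = 0.497), and the KO minus WT difference was -1.32 ± 0.21 (adjusted p = 0.0019). Cd24a, a glycoprotein common on cDC1, kept its difference, with 16.5, 17.9 and 22.6 CPM in KO CD4+ and 101, 145 and 108 CPM in KO CD4-CD8- libraries (log2 difference -2.64 ± 0.19 in KO and -2.70 ± 0.19 in WT, adjusted p = 2.74e-07 and 8.57e-08). The chemokine receptor gene Cxcr3 did so as well (-2.16 ± 0.22 in KO and -2.30 ± 0.23 in WT, adjusted p = 1.38e-05 and 3.55e-06).

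NK cell genes were lower in CD4+ cells of both genotypes. All 13 measured NK list genes fell in KO and all 13 in WT, where 4.78% and 9.65% of all genes fell. The KO count was 8 to 13 under 17 other settings. Il2rb, a chain of the IL-2 and IL-15 receptors, had 3.04, 2.33 and 2.58 CPM in KO CD4+ and 82.6, 21.4 and 52.2 CPM in KO CD4-CD8- libraries. WT values were 3.20, 2.33 and 2.34 CPM in CD4+ and 484, 235 and 266 CPM in CD4-CD8- libraries. CD4-CD8- libraries were separate from CD4+ libraries in both genotypes and uneven among themselves (-4.29 ± 0.52 in KO, adjusted p = 6.78e-05). The granule proteins Gzma (means of 0.0982 CPM in KO CD4+ and 8.09 CPM in KO CD4-CD8- cells) and Prf1 were the less secure calls, since Gzma (adjusted p = 0.0247) was lost in 4 of 6 fits that each left out 1 KO library (highest adjusted p = 0.11, without KO CD4+ replicate 2) and Prf1 (adjusted p = 0.0088) without KO CD4-CD8- replicate 1 (adjusted p = 0.0578). Of the 15 T cell genes, 13 had a called KO minus WT difference (86.7%, against 3.77% of all genes), all positive. That count was 5 without KO CD4+ replicate 3 or WT CD4+ replicate 2, 7 without WT CD4-CD8- replicate 1 and 8 without WT CD4+ replicate 3, and at most 14 under 23 other settings. Among the less secure, Zap70 (adjusted p = 0.0318) was lost in 7 of 12 fits that each left out 1 library (highest adjusted p = 0.101, without WT CD4+ replicate 2) and Lck (adjusted p = 0.0208) in 5 (highest adjusted p = 0.0766, without KO CD4+ replicate 2). In KO 3 of the 15 fell, which were Lck, Zap70 and Cd247 of the T cell receptor signalling chain, and 1 rose, Cd5, an inhibitory receptor. That was 26.7% called, against 7.95% of all genes. In WT 14 fell and 1 rose, where 16.8% of all genes were called. Lck averaged 2.93 ± 1.12 CPM in KO CD4+ and 15.6 ± 9.22 CPM in KO CD4-CD8- cells, against 1.42 ± 0.575 CPM in WT CD4+ and 100.4 ± 35.0 CPM in WT CD4-CD8- cells (SD, n = 3 each), and its KO call (adjusted p = 0.0134) was lost without KO CD4+ replicate 1 (adjusted p = 0.058) or KO CD4-CD8- replicate 3 (adjusted p = 0.0658). The KO calls of Zap70 and Cd247 (adjusted p = 0.024 and 0.0416) were lost in 4 and 5 of the 6 fits that each left out 1 KO library.

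Genes higher in CD4+ cells of both genotypes included lysozyme, surface receptors and antigen presentation genes. Lyz1, a lysozyme of myeloid cells, had 2558, 2853 and 3276 CPM in KO CD4+ and 875, 1230.4 and 1444 CPM in KO CD4-CD8- libraries. WT values were 117, 121 and 127 CPM in CD4+ and 42.4, 49.3 and 39.7 CPM in CD4-CD8- libraries. Both KO groups were above both WT groups, and within each genotype the CD4+ libraries were higher (1.29 ± 0.17 in KO, adjusted p = 0.000126, and 1.48 ± 0.17 in WT, adjusted p = 1.53e-05). Its near-identical neighbour Lyz2 rose by 0.61 ± 0.13 in KO (adjusted p = 0.00871) and measured 0.35 ± 0.13 in WT (adjusted p = 0.0825), and reads of the pair can be divided between them wrongly. Adam23, a member of the ADAM family without protease activity, had 196, 189 and 184 CPM in KO CD4+ and 94.1, 78.7 and 74.0 CPM in KO CD4-CD8- libraries. WT values were 339, 298 and 337 CPM in CD4+ and 126, 167 and 156 CPM in CD4-CD8- libraries. It rose in both genotypes (1.20 ± 0.14 in KO and 1.12 ± 0.14 in WT, adjusted p = 5.54e-05 and 3.43e-05). Clec4a4, the inhibitory receptor DCIR2 of CD4+ cDC2, averaged 21.0 ± 3.02 CPM in KO CD4+ and 12.6 ± 3.21 CPM in KO CD4-CD8- cells, against 124 ± 6.01 CPM in WT CD4+ and 65.4 ± 3.33 CPM in WT CD4-CD8- cells (SD, n = 3 each). Its log2 difference was 0.73 ± 0.15 in KO (adjusted p = 0.00638) and 0.93 ± 0.14 in WT (adjusted p = 0.000165). Ly6d, a GPI-anchored protein of lymphoid and plasmacytoid lineages, had 19.3, 27.0 and 31.4 CPM in KO CD4+ and 6.35, 5.76 and 6.21 CPM in KO CD4-CD8- libraries, and rose in both genotypes (2.08 ± 0.25 in KO and 1.80 ± 0.25 in WT, adjusted p = 6.78e-05 and 7.94e-05).

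Of 14 measured genes of MHC class II presentation, 6 rose and 1 fell in KO CD4+ cells (3.17% of all genes rose and 4.78% fell), and 8 rose and 2 fell in WT (7.14% and 9.65% of all genes). The KO rises numbered 2 on log2(TPM + 1) and 3 without KO CD4-CD8- replicate 3, and 2 to 7 over 17 other settings. H2-Eb2, a class II beta chain, had 376, 329 and 366 CPM in KO CD4+ and 210.0, 188 and 148 CPM in KO CD4-CD8- libraries. WT values were 636, 619 and 571 CPM in CD4+ and 222, 291 and 234 CPM in CD4-CD8- libraries. The populations were separate in both genotypes (0.97 ± 0.14 in KO and 1.29 ± 0.14 in WT, adjusted p = 0.000404 and 9.98e-06). H2-DMb2, a chain of the peptide exchange factor, rose by 0.73 ± 0.11 in KO (adjusted p = 0.000554) and 0.85 ± 0.11 in WT. Cd74, the invariant chain, differed by 0.29 ± 0.07 in KO (adjusted p = 0.0103). The 1 that fell was Cst3, an inhibitor of cysteine proteases that is abundant in cDC1 (-1.07 ± 0.15 in KO and -0.76 ± 0.15 in WT, adjusted p = 0.000289 and 0.00196). Among genes rapidly induced in dissociated cells, 3 of 17 rose in KO (0 to 9 under other settings) and 5 in WT. Of all genes, 3.17% rose in KO and 7.14% in WT.

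**Figure D4:**
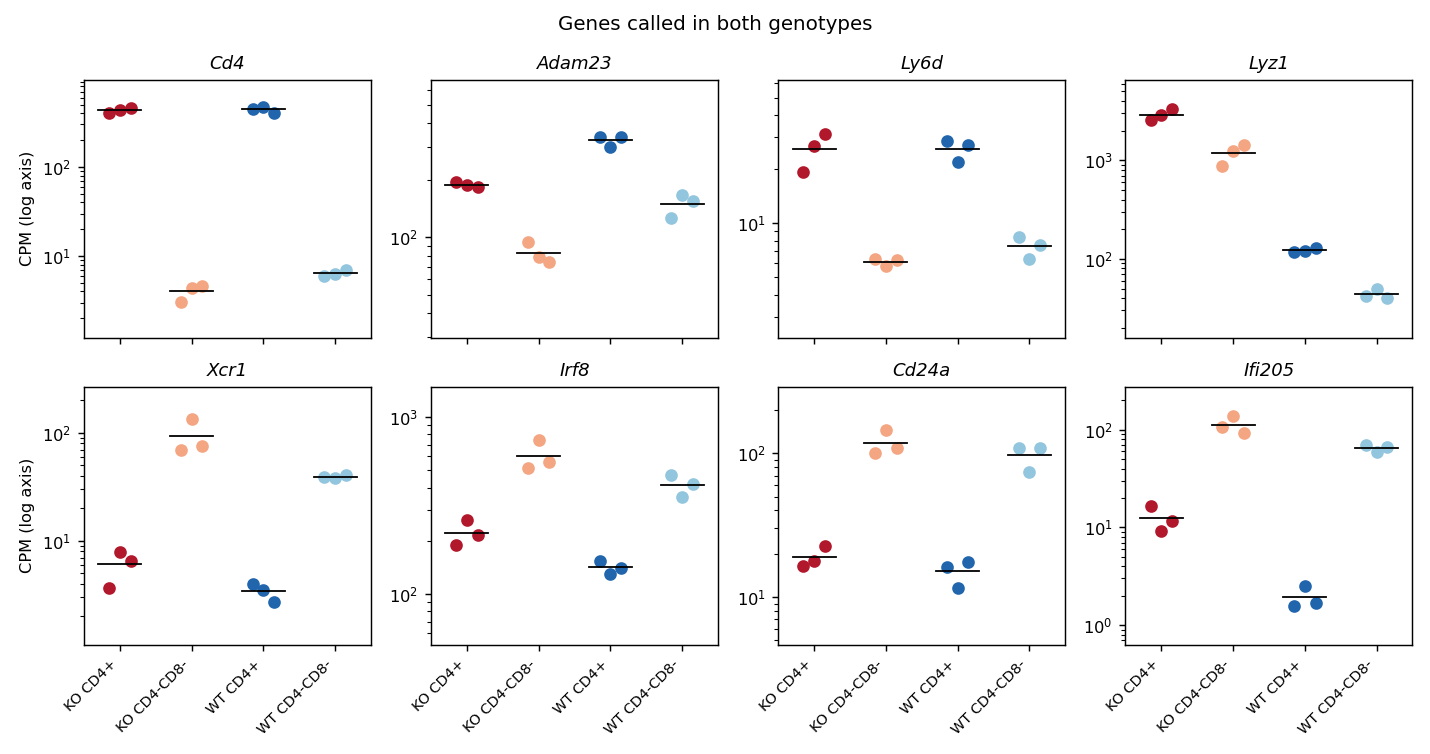
CPM on a log axis for 8 genes called in both genotypes in the same direction, in each library of the KO CD4+, KO CD4-CD8-, WT CD4+ and WT CD4-CD8- groups (points, 3 libraries each; bars, means). The upper 4 genes are higher in CD4+ cells and the lower 4 higher in CD4-CD8- cells in both genotypes, as for Lyz1 at a mean of 2896 CPM in KO CD4+ and 1183 CPM in KO CD4-CD8- cells.

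Some differences were present or larger in KO, and genes typical of macrophages rose in KO CD4+ cells. Of 15 measured genes of red pulp macrophages, the iron-recycling macrophages of the spleen, 9 rose and 1 fell in KO CD4+ cells (median log2 difference 1.13, with 6 to 10 rises under 17 other settings). Of all genes, 3.17% rose and 4.78% fell in KO. In WT, 4 of the 15 rose and 3 fell (median 0.73), where 7.14% of all genes rose and 9.65% fell. The first component of complement stood out. Its subunit genes lie side by side on chromosome 4 of GRCm38, C1qa at chr4:136895917-136898803, C1qb at chr4:136880129-136886187 and C1qc at chr4:136889804-136893065, all on the minus strand. Because they moved together, the RefSeq (GRCm38.p6) windows from 250 bases before to 50 bases after the gene start are given for the 2 genes in the promoter table, with the ETS-family core GAGGAA, or TTCCTC on the other strand, in capitals.
C1qb (chr4:136886151-136886450, minus strand): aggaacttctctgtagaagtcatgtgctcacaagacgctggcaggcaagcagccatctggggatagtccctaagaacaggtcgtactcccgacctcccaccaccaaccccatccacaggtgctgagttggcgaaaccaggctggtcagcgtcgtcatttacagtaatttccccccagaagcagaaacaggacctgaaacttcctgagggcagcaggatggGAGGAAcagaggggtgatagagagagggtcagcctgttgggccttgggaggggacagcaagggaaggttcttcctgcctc
C1qc (chr4:136892865-136893164, minus strand): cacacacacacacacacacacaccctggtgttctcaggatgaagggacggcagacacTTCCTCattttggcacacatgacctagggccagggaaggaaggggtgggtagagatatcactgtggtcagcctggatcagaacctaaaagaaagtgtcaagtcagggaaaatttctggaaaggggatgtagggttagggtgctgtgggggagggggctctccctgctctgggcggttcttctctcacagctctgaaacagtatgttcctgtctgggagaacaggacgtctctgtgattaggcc
The C1qb window holds 1 GAGGAA and the C1qc window 1 TTCCTC, as do 28.3% of 32851 such windows in the genome for either form, so the match is a description only.

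C1qa had 162, 157 and 145 CPM in KO CD4+ and 39.9, 15.3 and 29.5 CPM in KO CD4-CD8- libraries. WT values were 39.8, 43.0 and 34.7 CPM in CD4+ and 16.1, 29.0 and 14.8 CPM in CD4-CD8- libraries. KO CD4+ libraries were above all others, and the rise was 2.44 ± 0.33 log2 units in KO (adjusted p = 0.000204), against 0.98 ± 0.33 in WT (adjusted p = 0.0556). C1qb averaged 133 ± 10.6 CPM in KO CD4+ and 26.0 ± 12.5 CPM in KO CD4-CD8- cells, against 32.4 ± 4.45 CPM in WT CD4+ and 19.2 ± 9.08 CPM in WT CD4-CD8- cells (SD, n = 3 each). C1qc averaged 88.4 ± 6.59 CPM in KO CD4+ and 16.5 ± 5.50 CPM in KO CD4-CD8- cells, against 23.0 ± 2.86 CPM in WT CD4+ and 11.4 ± 4.99 CPM in WT CD4-CD8- cells (SD, n = 3 each). The KO rise was called for each, yet the KO minus WT difference was not called for C1qa, C1qb or C1qc (1.46, 1.58 and 1.40, adjusted p = 0.105, 0.102 and 0.0948), so a larger difference in KO was not shown for them.

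Hmox1, the heme oxygenase that breaks down heme (chr8:75093621-75100589), had 141, 163 and 167 CPM in KO CD4+ and 28.3, 37.4 and 41.7 CPM in KO CD4-CD8- libraries. WT values were 36.9, 21.9 and 26.0 CPM in CD4+ and 33.5, 27.9 and 23.4 CPM in CD4-CD8- libraries. Only KO CD4+ libraries were high. The difference was 2.14 ± 0.22 in KO (adjusted p = 1.12e-05) and 0.00 in WT (adjusted p = 0.995), and the KO minus WT difference was 2.14 ± 0.30 (adjusted p = 0.000671). The lysosomal glycoprotein gene Gpnmb had 6.80, 9.57 and 6.52 CPM in KO CD4+ and 0.356, 0.230 and 0.230 CPM in KO CD4-CD8- libraries. WT values were 0.604, 0.862 and 0.601 CPM in CD4+ and 0.302, 0.146 and 0.324 CPM in CD4-CD8- libraries. It too was high in KO CD4+ libraries only, with a KO minus WT difference of 3.36 ± 0.74 (adjusted p = 0.0159). That call was lost without KO CD4+ replicate 2 (adjusted p = 0.0518), WT CD4-CD8- replicate 1 (adjusted p = 0.0649) or WT CD4-CD8- replicate 3 (adjusted p = 0.0626), while the KO rise of 4.75 ± 0.49 (adjusted p = 1.28e-05) was kept.

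Cxcl13 and Pla2g2d were among the largest rises in KO CD4+ cells. Cxcl13, the chemokine that draws B cells into follicles, had 10.8, 6.04 and 9.25 CPM in KO CD4+ and 0.297, 0.230 and 0.307 CPM in KO CD4-CD8- libraries, and averaged 0.0931 CPM in WT CD4+ and 0.0633 CPM in WT CD4-CD8- cells. The rise of 4.92 ± 0.52 in KO (adjusted p = 1.45e-05) had no counterpart called in WT (adjusted p = 0.782), but the KO minus WT difference missed the threshold (4.41 ± 1.26, adjusted p = 0.0666). Pla2g2d, a secreted phospholipase, averaged 18.9 ± 2.62 CPM in KO CD4+ and 0.890 ± 0.163 CPM in KO CD4-CD8- cells, against 2.28 ± 0.373 CPM in WT CD4+ and 0.473 ± 0.297 CPM in WT CD4-CD8- cells (SD, n = 3 each), and rose in both genotypes (4.40 ± 0.42 in KO, adjusted p = 4.91e-06, and 2.23 ± 0.46 in WT, adjusted p = 0.00279). The KO minus WT difference of Pla2g2d was not called, so a larger rise in KO was not shown for it. Among 14 measured chemokines, Cxcl13 and Ccl24 rose and 0 fell in KO (14.3% called, against 7.95% of all genes). In WT 3 rose and 4 fell, where 16.8% of all genes were called. The 2 KO rises became 1 in 5 of the 6 fits that each left out 1 KO library, 4 without KO CD4+ replicate 1, and 6 with the replicate number as a block. One of the largest rises, Fam177a, was high in KO CD4+ replicate 2 (57.3 CPM, against 6.20 and 12.0 CPM in the other KO CD4+ libraries), and its call (adjusted p = 0.0498) was lost in 5 of 6 fits that each left out 1 KO library (highest adjusted p = 0.273, without KO CD4+ replicate 2).

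Mertk, Maf, S1pr1, Apoe and Nr1h3 also rose in KO CD4+ cells. Mertk, a receptor for dying cells, had 4.87, 3.25 and 4.23 CPM in KO CD4+ and 0.474, 0.384 and 0.460 CPM in KO CD4-CD8- libraries, and rose by 3.20 ± 0.36 in KO (adjusted p = 3.15e-05) and 1.17 ± 0.35 in WT (adjusted p = 0.0317). Its KO minus WT difference was called (2.03 ± 0.51, adjusted p = 0.0329) and was lost in 9 of the 12 fits that each left out 1 library. Maf, a transcription factor of macrophages and T cells picked with its values known, had 7.58, 10.5 and 10.1 CPM in KO CD4+ and 3.80, 3.53 and 4.29 CPM in KO CD4-CD8- libraries. WT values were 3.26, 4.52 and 3.14 CPM in CD4+ and 8.22, 6.51 and 5.18 CPM in CD4-CD8- libraries. Its difference turned round between genotypes (1.28 ± 0.26 in KO, adjusted p = 0.00449, and -0.86 ± 0.26 in WT, adjusted p = 0.0285; KO minus WT 2.14 ± 0.36, adjusted p = 0.00246). S1pr1, a receptor that guides cells toward blood, also turned round, at means of 3.92 CPM in KO CD4+ and 0.780 CPM in KO CD4-CD8- cells, against 0.598 CPM in WT CD4+ and 2.15 CPM in WT CD4-CD8- cells (KO minus WT 4.15 ± 0.70, adjusted p = 0.00248). Apoe, a lipid carrier, had 137, 268 and 169 CPM in KO CD4+ and 34.1, 43.7 and 73.0 CPM in KO CD4-CD8- libraries, and rose by 1.93 ± 0.31 in KO (adjusted p = 0.000791). Nr1h3, the oxysterol receptor LXR alpha, rose by 1.34 ± 0.22 in KO (adjusted p = 0.000852). The KO minus WT difference was not called for Apoe or Nr1h3, so a larger rise in KO was not shown for them.

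The macrophage list as a whole summed to 1376 to 1609.5 CPM in KO CD4+ and 696 to 859.7 CPM in KO CD4-CD8- libraries, against 695 to 779 CPM in WT CD4+ and 404 to 525 CPM in WT CD4-CD8- libraries. KO CD4+ libraries were above the rest. Spic and Cd5l, both genes of the list, were picked with their values known. Spic, the transcription factor of red pulp macrophages, was above 0 in every library. Spic averaged 5.51 ± 0.697 CPM in KO CD4+ and 2.46 ± 0.579 CPM in KO CD4-CD8- cells, against 13.4 ± 2.93 CPM in WT CD4+ and 8.52 ± 1.84 CPM in WT CD4-CD8- cells (SD, n = 3 each), with its KO means below its WT means. Cd5l, a secreted protein of macrophages, was not called (7.73 ± 2.45 CPM in KO CD4+ and 3.94 ± 2.19 CPM in KO CD4-CD8- cells, SD, n = 3 each, adjusted p = 0.132). A separate list of 8 marginal zone macrophage genes summed to 448.5 to 487.1 CPM in KO CD4+ and 373.2 to 414.7 CPM in KO CD4-CD8- libraries. WT sums were higher, at 1090 to 1237 CPM in CD4+ and 650 to 859 CPM in CD4-CD8- libraries, so this list was lower in both KO groups. Whether macrophages in the CD4+ sort contribute to these rises was not tested.

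Genes lower in KO CD4+ cells with no called WT difference made up 66 of the 118 genes that were farther apart in KO. Of the 118, 84 were lower and 34 higher in KO CD4+ cells. Plac8, a small protein of myeloid and lymphoid cells, had 123, 91.8 and 97.3 CPM in KO CD4+ and 406, 309 and 314 CPM in KO CD4-CD8- libraries. WT values were 467, 638 and 557 CPM in CD4+ and 535, 641 and 526 CPM in CD4-CD8- libraries. KO CD4+ libraries were lowest, and the KO minus WT difference was -1.68 ± 0.20 (adjusted p = 0.000172). Treml4, a receptor that binds dead cells, had 7.80, 10.6 and 10.5 CPM in KO CD4+ and 18.1, 33.1 and 33.8 CPM in KO CD4-CD8- libraries. WT values were 50.3, 53.2 and 54.5 CPM in CD4+ and 42.0, 51.0 and 56.3 CPM in CD4-CD8- libraries. Both KO groups were below WT and KO CD4+ was the lower (KO minus WT -1.64 ± 0.27, adjusted p = 0.00231). Id2, a repressor of E proteins that cDC1 require, had 50.0, 50.1 and 55.8 CPM in KO CD4+ and 135, 185 and 119 CPM in KO CD4-CD8- libraries. WT values were 164, 198 and 149.7 CPM in CD4+ and 201, 204 and 194 CPM in CD4-CD8- libraries. Its KO minus WT difference was -1.27 ± 0.20 (adjusted p = 0.00133).

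Further genes showed the same order with KO CD4+ lowest. Cd7, a surface protein of lymphoid cells and dendritic cell precursors, had 38.2, 42.1 and 40.1 CPM in KO CD4+ and 206, 169.8 and 210.1 CPM in KO CD4-CD8- libraries, against 274, 330.4 and 310.0 CPM in WT CD4+ and 652, 439 and 528 CPM in WT CD4-CD8- libraries (KO minus WT -1.46 ± 0.28, adjusted p = 0.006). Sema4f, a membrane semaphorin, averaged 0.834 ± 0.266 CPM in KO CD4+ and 8.16 ± 1.71 CPM in KO CD4-CD8- cells, against 4.21 ± 1.30 CPM in WT CD4+ and 4.94 ± 0.368 CPM in WT CD4-CD8- cells (SD, n = 3 each; KO minus WT -3.04 ± 0.33, adjusted p = 8.01e-05). In Gpr4, a proton-sensing receptor, and in Adam19, an ADAM protease, the sign itself changed. Gpr4 averaged 2.39 ± 1.04 CPM in KO CD4+ and 6.60 ± 1.56 CPM in KO CD4-CD8- cells, against 26.1 ± 3.03 CPM in WT CD4+ and 12.3 ± 3.07 CPM in WT CD4-CD8- cells (SD, n = 3 each; KO minus WT -2.54 ± 0.36, adjusted p = 0.000637). Adam19 averaged 54.1 ± 1.81 CPM in KO CD4+ and 78.4 ± 10.7 CPM in KO CD4-CD8- cells, against 123 ± 15.9 CPM in WT CD4+ and 92.9 ± 10.7 CPM in WT CD4-CD8- cells (SD, n = 3 each; KO minus WT -0.94 ± 0.19, adjusted p = 0.00801), and its KO call (adjusted p = 0.0187) was lost in 3 of 6 fits that each left out 1 KO library (highest adjusted p = 0.0955, without KO CD4-CD8- replicate 3).

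Of 40 measured transcription factors, 5 rose and 8 fell in KO (32.5% called, against 7.95% of all genes), and 4 rose and 10 fell in WT, where 16.8% of all genes were called. Over 17 other settings KO had 2 to 7 rises and 3 to 8 falls, with 3 rises without KO CD4+ replicate 2 or KO CD4-CD8- replicate 1, and 5 falls without KO CD4+ replicate 2, KO CD4+ replicate 3 or KO CD4-CD8- replicate 3. Irf4 had 115, 109 and 126 CPM in KO CD4+ and 118, 128 and 135 CPM in KO CD4-CD8- libraries. WT values were 168, 134 and 145 CPM in CD4+ and 93.9, 91.0 and 108 CPM in CD4-CD8- libraries. Irf4 was higher in CD4+ cells in WT (0.61 ± 0.16, adjusted p = 0.0164) and not called in KO (-0.13 ± 0.16, adjusted p = 0.726), with a KO minus WT difference of -0.74 ± 0.23 that was not called (adjusted p = 0.0991). Zbtb46, a transcription factor of all conventional dendritic cells, had 61.8, 52.9 and 58.1 CPM in KO CD4+ and 65.5, 69.9 and 70.7 CPM in KO CD4-CD8- libraries. WT values were 83.0, 87.7 and 85.3 CPM in CD4+ and 65.0, 66.9 and 73.6 CPM in CD4-CD8- libraries. Only WT CD4+ libraries were above the rest, and the KO minus WT difference was -0.57 ± 0.11 (adjusted p = 0.00488). The KO difference alone was small (-0.25 ± 0.07, adjusted p = 0.0487) and was lost in 5 of 6 fits that each left out 1 KO library (highest adjusted p = 0.212, without KO CD4+ replicate 2). Klf4, Tbx21 and Batf3 were not called in KO (adjusted p = 0.511, 0.688 and 0.546). Among 17 measured cDC2 genes 2 rose and 0 fell in KO (11.8%, against 7.95% of all genes). In WT 7 rose and 0 fell, where 16.8% of all genes were called.

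Some genes of lipid synthesis and adhesion fell in CD4+ cells. Of 18 measured cholesterol synthesis genes, 7 fell, 0 rose and 11 were not called in KO CD4+ cells (median log2 difference -0.35; 4.78% of all genes fell), and 6 fell in WT (median -0.26; 9.65% of all genes). The KO falls numbered 4 without KO CD4-CD8- replicate 3 and 4 to 10 over 17 other settings. Sqle, squalene epoxidase, had 37.2, 38.0 and 37.0 CPM in KO CD4+ and 54.9, 64.2 and 62.3 CPM in KO CD4-CD8- libraries. WT values were 36.8, 37.7 and 38.9 CPM in CD4+ and 52.9, 48.0 and 51.1 CPM in CD4-CD8- libraries. The populations were separate in both genotypes (-0.69 ± 0.09 in KO, adjusted p = 8.01e-05, and -0.42 ± 0.09 in WT, adjusted p = 0.00237, with a KO minus WT difference of -0.27 ± 0.12, adjusted p = 0.296). Fdps and Idi1, which act earlier in the pathway, fell in KO by 0.76 ± 0.15 and 0.49 ± 0.10 log2 units (adjusted p = 0.00435 and 0.00419). Of 15 integrins, 7 fell, 0 rose and 8 were not called in KO (46.7% called, against 7.95% of all genes). In WT 8 fell and 1 rose, where 16.8% of all genes were called. The KO falls numbered 4 without KO CD4+ replicate 1, KO CD4+ replicate 2 or KO CD4-CD8- replicate 1, and 2 on TMM-scaled TPM. Itgal, the alpha chain of LFA-1, had 76.5, 87.6 and 90.6 CPM in KO CD4+ and 173, 201 and 219 CPM in KO CD4-CD8- libraries. WT values were 203, 217 and 223 CPM in CD4+ and 376, 401 and 397 CPM in CD4-CD8- libraries. Its log2 difference was -1.22 ± 0.11 in KO (adjusted p = 3.53e-06) and -0.87 ± 0.11 in WT (adjusted p = 3.05e-05). Itgb7, a partner chain of gut-homing integrins, fell by 0.67 ± 0.10 in KO (adjusted p = 0.000525). Of 22 glycolysis genes 4 fell and 0 rose in KO (18.2% called, against 7.95% of all genes). In WT 4 fell and 1 rose, where 16.8% of all genes were called. The KO falls numbered 1 without KO CD4+ replicate 2. Among the 4 in KO was Aldoc, an aldolase, at 10.9 ± 1.06 CPM in KO CD4+ and 29.3 ± 3.04 CPM in KO CD4-CD8- cells (SD, n = 3 each). Its log2 difference in KO was -1.42 ± 0.10 (adjusted p = 3.69e-07).

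For several other pathways few genes were called between the KO populations. For lists of their size such KO counts are near the 7.95% of all genes and say nothing particular about them. The WT counts beside them stand against 16.8% of all genes called in WT. Among 16 costimulatory and checkpoint ligands 0 were called in KO by edgeR, with 6 at an unadjusted p under 0.05 and 4 called by DESeq2, against 4 that rose and 3 that fell in WT. Of 14 genes of MHC class I loading 0 were called by edgeR or DESeq2 and 1 by limma on log2(TPM + 1), with 2 at an unadjusted p under 0.05. In oxidative phosphorylation 0 of 26 genes were called by edgeR and 1 by DESeq2, with 2 at an unadjusted p under 0.05. Of 20 genes of the unfolded protein response 0 were called by edgeR or DESeq2, 1 by limma on log2(TPM + 1), and 2 had an unadjusted p under 0.05, and of 10 heat shock genes 0 passed at any of these levels. Interferon-stimulated genes counted 0 rises and 1 fall among 24 in KO (4.2%), and 3 rises and 1 fall in WT. Ribosomal protein genes counted 1 rise among 34 in KO (2.9%), and 14 in WT. Reported ADAM10 substrates, genes whose products ADAM10 is reported to cut, had a larger share called in KO than these lists. Of 24, 4 rose (Havcr1, Lag3, Mertk and App) and 1 fell in KO, 20.8% against the 7.95%, and 5 rose and 4 fell in WT.

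**Figure D5:**
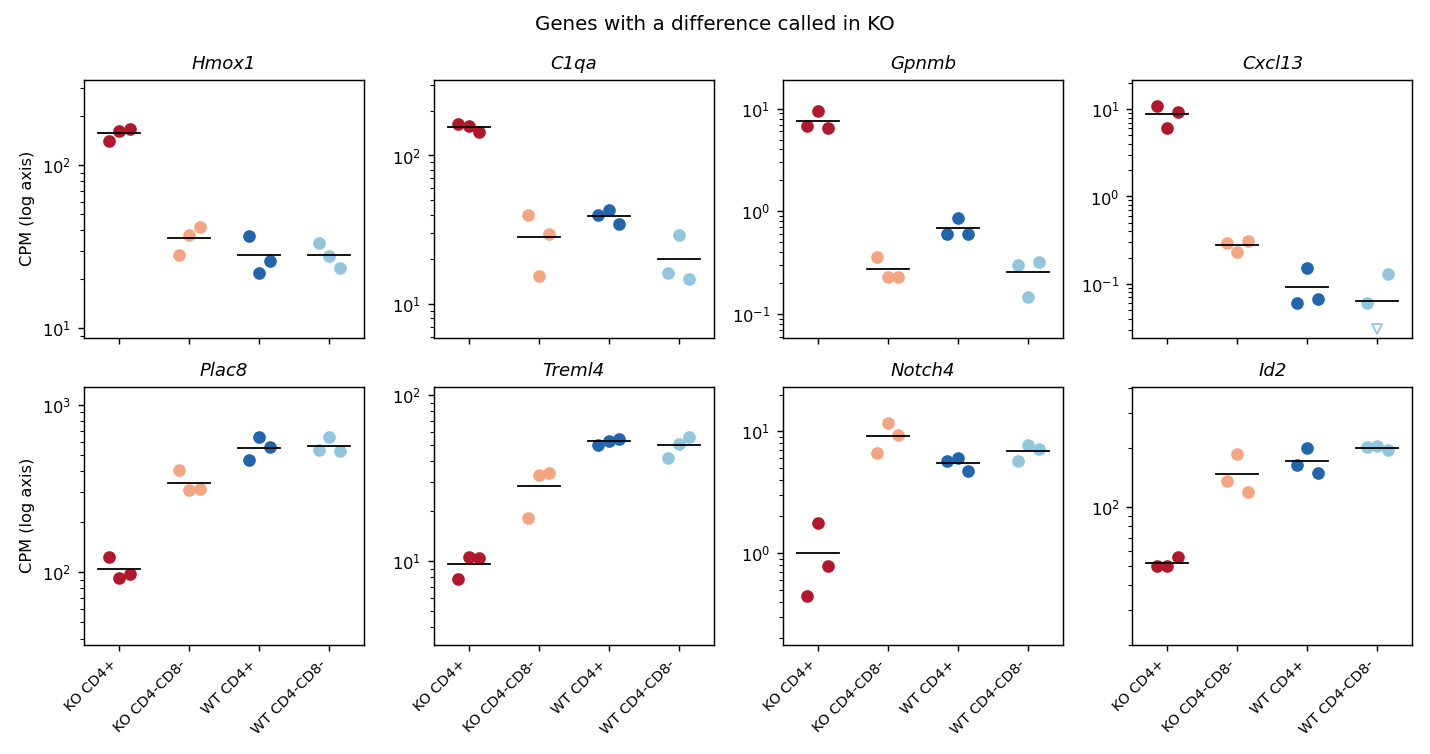
CPM on a log axis for 8 genes called between the KO populations, in each library of the KO CD4+, KO CD4-CD8-, WT CD4+ and WT CD4-CD8- groups (points, 3 libraries each; open triangle, a library at 0; bars, means). KO CD4+ cells are the highest group for the upper 4 genes, such as Hmox1 at 141 to 167 CPM, and the lowest for the lower 4, such as Plac8 at 91.8 to 123 CPM.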

How the data were processed

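Poly(A) RNA of sorted spleen cells was sequenced as single-end reads in 18 libraries, 3 in each of 6 groups, per the labels. FastQC 0.11.8, Salmon 0.14.1 and the build GRCm38 are named in the submitters' processing notes, and strand use is not given in the sources used here. The authors deposited estimated counts per transcript (not whole numbers, not normalized) and TPM per transcript. Expected counts as deposited were summed per gene name over 117135 transcripts and rounded, and 152 transcripts without a gene name, at most 0.17% of a library's counts, were left out. The TPM as deposited by the authors, for 84086 transcripts, served the alternatives on log2(TPM + 1) and log2(TPM + 0.1), summed per gene. The other 33049 transcripts had 0 counts in every library.

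Tests used edgeR 4.0.16 in R 4.3.3 (filterByExpr, TMM scaling, quasi-likelihood F test), fitted to all 18 libraries with 1 mean per group and 12 residual degrees of freedom, over 13355 genes, with Benjamini-Hochberg adjustment and a threshold of 0.05. Standard errors are the log2 difference divided by the square root of F. Distances used log2 CPM with a prior count of 2. DESeq2 1.42.0 and limma 3.58.1, other scalings and filters, a replicate block and leaving out each library were tried as alternatives, and the fits were tested on simulated data. Total counts were 12358884 to 19557469 per library. Counts of 2 libraries of 1 group differed by a chi-square of 9.13 to 30.5 per gene over 18 pairs, so no library was a repeat of another.

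Named genes were drawn from the label checks, a list of 27, and the 14 largest rises and 14 largest falls called in KO. Those rises and falls had at least 5 CPM in the higher group and libraries that did not overlap. Further sources were 8 per direction in WT, 6 per direction in the KO minus WT difference, and up to 4 called members of each of 49 lists by smallest p. Not every gene so picked is described. Maf, Wdfy4, Cd3e, Cd3g, Spic, Cd5l and Lag3 were named outside these rules. Members and lists were chosen with earlier results of these data known. Genes with near-identical copies (Lyz1 and Lyz2, Clec10a and Mgl2, the Klra family) are uncertain where the quantification could split their reads, as are overlapping and antisense genes. Some results are not reported here.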

Additional observations from a re-analysis of the deposited data

Results flagged for a closer look

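For 38 named genes the difference between CD4+ and CD4-CD8- cells itself differed between KO and WT, tested as the KO difference minus the WT difference with edgeR's quasi-likelihood test at an adjusted p under 0.05. The values below are that difference on the log2 scale.

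Among receptor, lectin, matrix, adaptor and enzyme genes it was 1.68 for Ccr2, 1.09 for Cx3cr1, 1.74 for Clec10a, 3.07 for Fn1, 2.11 for Notch1, 6.29 for Dok2, 5.67 for Igf2r, 5.15 for Klrb1a and 5.14 for Alox5. For T cell genes it was 5.30 for Trbc1, 5.01 for Skap1, 3.70 for Lck, 3.48 for Zap70, 3.95 for Cd247, 3.67 for Cd3e and 4.36 for Cd3g. Cd3e was chosen after its values were seen.

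Among macrophage and related genes it was 3.36 for Gpnmb, 2.14 for Hmox1, 2.03 for Mertk, 2.14 for Maf, 4.15 for S1pr1 and 4.33 for Ccl24, an eotaxin chemokine. Ifi205 had 1.88. Differences below 0 were -0.57 for Zbtb46, -3.04 for Sema4f, -2.84 for Notch4, -2.70 for Serpinb2, a protease inhibitor, -2.54 for Gpr4, -1.96 for Mmp9, a matrix protease, and -1.86 for 2900026A02Rik. They were -0.56 for Kmo, an enzyme of tryptophan breakdown, -1.46 for Cd7, -1.68 for Plac8, -1.64 for Treml4, -0.54 for Mcm5, a replication helicase subunit, -0.94 for Adam19, -1.27 for Id2 and -1.32 for Wdfy4. Leaving out each library in turn lost the call in 10 of 12 fits for Cd3e and Mcm5 and in 9 of 12 for Ccl24, Kmo, Mmp9 and 2900026A02Rik.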

How the results depend on the processing

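More genes differed in WT than in KO under every setting run on both genotypes. The KO count of 1062 was 669 with only the KO cDC2 libraries in the fit, 526 on log2(TPM + 1), 544 on log2(TPM + 0.1), 451 on log2(TPM + 1) with no filter and 583 on TMM-scaled TPM. Leaving out single libraries gave 664 to 952. The WT count of 2243 was 1321 on TMM-scaled TPM, and 1527 to 2034 without single libraries. The KO minus WT count of 503 was 251 on log2(TPM + 0.1), and 305 to 548 without single libraries. The cause was not tested. DESeq2 called 1313, 2428 and 720 genes in KO, WT and the KO minus WT difference. The change for Alox5 turned to -0.0773 on log2(TPM + 1), with and without a filter, and to -0.22 on TMM-scaled TPM. The KO minus WT distance of -0.155 ranged from -0.0986 on log2(TPM + 1) to -0.204 without replicate 2, and was -0.104 without replicate 1.

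Splits of higher against lower calls moved on unscaled TPM, where the median of all WT differences was -0.12 or -0.16, against 0.02. WT had 185 higher and 1380 lower on log2(TPM + 0.1), and 210 and 1327 with no filter. KO had 142 and 402 on log2(TPM + 0.1). The KO minus WT difference had 231 positive and 20 negative on log2(TPM + 0.1), 305 and 32 with no filter, and 264 and 77 on TMM-scaled TPM.

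With the replicate number as a block, 1551, 2856 and 852 genes were called in KO, WT and the KO minus WT difference. Deviations of same-numbered libraries correlated at 0.0598 to 0.206, not all above 0.1, so the numbers were not taken as pairs in the tests of genes. All 12 of 12 libraries correlated best with their own number, a hint from the data and not from the design. Depth and 3 libraries a group limit small differences and genes near 0.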
